A study of Rattus norvegicus with 12 samples.

Results

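The extracellular matrix and fibroblast genes described here are 49 genes fixed by a list of names: collagens, basement membrane proteins, elastic fibre proteins, proteoglycans, adhesive and matricellular proteins, enzymes that mature collagen and elastin, and surface proteins of fibroblasts. Of these, 40 had a probe set with a single gene symbol and were measured, out of 14506 genes tested. The other 9 (Col6a1, Col6a2, Col6a3, Col4a2, Col18a1, Nid1, Hspg2, Lamb1 and Tnc) had none in the platform annotation and were not analysed here. RNA was measured in primary cultured inner medullary collecting duct (IMCD) cells from kidneys of male SD rats aged 7 weeks, with 1 Affymetrix Rat Gene 1.0 ST array per sample. All cells were first grown for 4 days at 640 mOsm/kg, an osmolality in the range of the renal inner medulla. The 4 groups of 3 arrays were cells moved to 300 mOsm/kg for 48 h, cells kept at 640 mOsm/kg for 48 h, cells moved to 300 mOsm/kg for 24 h and cells kept at 640 mOsm/kg for 24 h. The labels name no genetic change in any group. Separate rats or cultures behind the 3 samples of a group are not named in the labels, and the p-values therefore rest on a spread between samples that may be technical.

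The extracellular matrix of the kidney has a pair of compartments. Basement membranes, built on type IV collagen, laminins and nidogens, lie directly under tubular epithelium and are made in large part by the epithelial cells. The interstitial matrix, built on fibrillar collagens, elastic fibres, fibronectin and small proteoglycans, lies between the tubules and is made mainly by fibroblasts and pericytes. Primary cultures of tubular cells can hold such cells, and cultured epithelial cells can also make interstitial matrix. In total RNA of a culture, a change in the number of cells of a type and a change in RNA per cell cannot be told apart, and this applies to every result below.

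The promoters of 3 members are shown because these genes, among those with a RefSeq promoter at hand, stand for the patterns described below. Fbln2 and Postn had the largest rises at 300 mOsm/kg, and Vcan rose with time at both osmolalities. No promoter was at hand for Dcn, Col12a1 or Fbln1, and those of Lamb3 and Pcolce, which were not called, are not shown. The sequences run from 250 bases before to 50 bases after the start of the gene (RefSeq, GRCr8). Capitals mark matches to TGGAAA, the core of the tonicity-responsive enhancer bound by Nfat5, the factor that responds to hypertonicity, or to TATAAA, the TATA box.
Fbln2: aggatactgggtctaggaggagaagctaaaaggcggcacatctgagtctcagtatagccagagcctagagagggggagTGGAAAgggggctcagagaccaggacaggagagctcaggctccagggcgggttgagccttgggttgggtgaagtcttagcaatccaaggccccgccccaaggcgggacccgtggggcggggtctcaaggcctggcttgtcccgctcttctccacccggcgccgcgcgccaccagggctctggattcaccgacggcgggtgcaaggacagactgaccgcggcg
Postn: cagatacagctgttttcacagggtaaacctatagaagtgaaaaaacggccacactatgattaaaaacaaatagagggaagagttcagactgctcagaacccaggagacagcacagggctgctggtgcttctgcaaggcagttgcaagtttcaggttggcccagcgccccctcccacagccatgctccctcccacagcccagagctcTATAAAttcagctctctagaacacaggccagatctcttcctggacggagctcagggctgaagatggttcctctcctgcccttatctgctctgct
Vcan: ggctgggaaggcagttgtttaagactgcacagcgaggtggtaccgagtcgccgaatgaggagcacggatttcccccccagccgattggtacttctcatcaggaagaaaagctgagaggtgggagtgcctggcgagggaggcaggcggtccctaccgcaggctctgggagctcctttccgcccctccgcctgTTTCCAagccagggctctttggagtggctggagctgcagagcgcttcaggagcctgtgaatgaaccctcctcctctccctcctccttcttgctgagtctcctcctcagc

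The Fbln2 window lies at chr4:125261409-125261708 on the plus strand and has TGGAAA at position -172. The Postn window lies at chr2:140677811-140678110 on the plus strand and has TATAAA at -44, with no match to TGGAAA. The Vcan window lies at chr2:22595906-22596205 on the minus strand, and TGGAAA lies on the strand opposite to the gene at -59. Both strands were searched. RefSeq promoters were at hand for 24 of the 40 measured members, and 9 of them (37.5%) held TGGAAA, against 22.7% of all 33469 promoters. TATAAA was in 3 of the 24 (12.5%), against 14.2% of all promoters. TGANTCA, the AP-1 site, was in 2 of the 24 (8.33%), against 7.33% of all promoters. A match describes the sequence only.

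Levels are deposited log2 values, with each array centred on its median over the genes tested and the mean median added back. Centring left the size of osmolality differences almost as it was and shifted the differences over time. Array medians lay between 6.81 and 6.97 at 48 h and between 6.89 and 7.58 at 24 h, so the mean median was 0.42 lower at 48 h. Replicate 1 at 300 mOsm/kg (6.89) and replicate 3 at 640 mOsm/kg (6.90) were the low pair at 24 h. On deposited values without centring, 5.89% of all genes were higher at 48 h than at 24 h at 300 mOsm/kg and 4.82% at 640 mOsm/kg, so changes over time are given relative to the array median. A gene was called at an adjusted p under 0.05 (limma, Benjamini-Hochberg over all 14506 genes). A log2 difference is given with its standard error (SE), and a mean level with its standard deviation (SD) over 3 arrays. With 3 arrays per group, the number of arrays limits the precision.

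**Figure D1:**
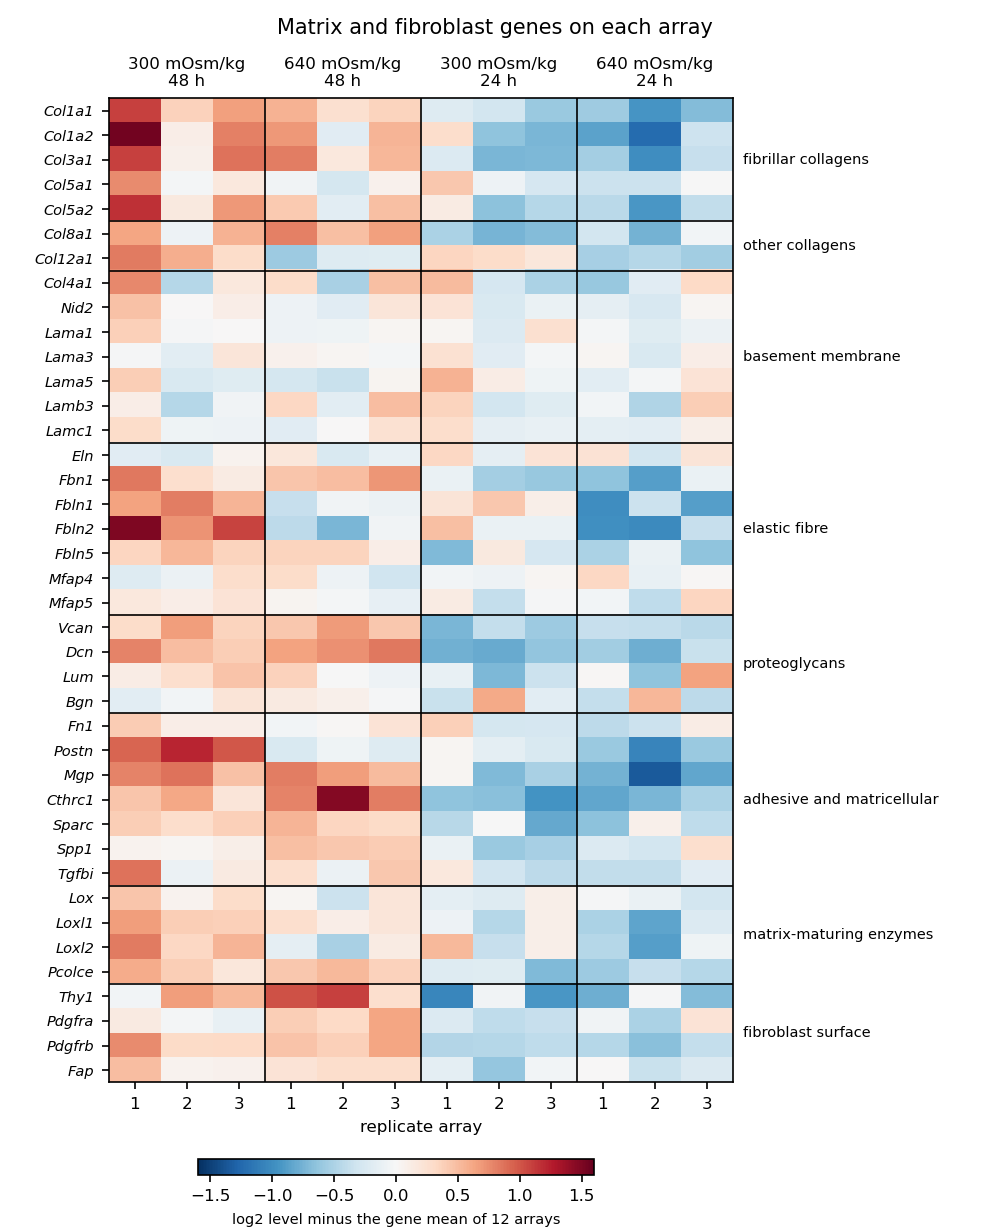
Levels of the 40 measured members on the 12 arrays, as centred log2 level minus the gene's mean over the arrays (colour), with genes in rows by role and arrays in columns by group. The 48 h columns are mostly red and the 24 h columns mostly blue for interstitial genes, while the 7 basement membrane genes show little contrast, and replicate 1 at 300 mOsm/kg is the reddest column at 48 h. Red at 48 h is relative to the array median, since 12 members at 300 and 14 at 640 mOsm/kg have the opposite sign over time on deposited values.

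The first question was which matrix genes differ between cells moved to 300 mOsm/kg and cells kept at 640 mOsm/kg. After 48 h, 4 members rose at 300 mOsm/kg and 0 fell: Postn (periostin, a matricellular protein of remodelling tissue), Fbln2 and Fbln1 (fibulins, glycoproteins bound to elastic fibres and basement membranes) and Col12a1 (a collagen that decorates the surface of collagen fibrils). Over all genes, 0.524% rose and 1.33% fell, 1.85% in either direction. The remaining 36 members did not pass the test. The members' median difference was 0.09, with 24 of 40 higher at 300 mOsm/kg, beside a median of 0.02 over all genes.

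Postn had log2 levels of 5.87, 6.15 and 5.93 on the 3 arrays at 300 mOsm/kg after 48 h, against 4.69, 4.86 and 4.73 at 640 mOsm/kg. The groups were well apart, and the log2 difference was 1.22 ± 0.17 (SE), or 2.33-fold (limma adjusted p = 0.000847). Fbln2 had 9.18, 8.40 and 8.77 at 300 mOsm/kg, against 7.27, 6.96 and 7.64 at 640 mOsm/kg. Its lowest array at 300 lay above its highest at 640, and the difference was 1.50 ± 0.25, or 2.82-fold (limma adjusted p = 0.00423). Postn and Fbln2 kept the call in every alternative run, including each array left out, where the adjusted p reached at most 0.00759 for Postn and 0.0287 for Fbln2. Postn is dim and was not in the alternative without the dimmest genes.

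Col12a1 had 9.38, 9.13 and 8.84 at 300 mOsm/kg after 48 h, against 7.97, 8.35 and 8.36 at 640 mOsm/kg. The groups did not overlap, and the difference was 0.89 ± 0.17, or 1.86-fold (limma adjusted p = 0.0113). Fbln1 had 8.31, 8.49 and 8.21 at 300 mOsm/kg, against 7.29, 7.60 and 7.57 at 640 mOsm/kg. These groups did not overlap either, and the difference was 0.85 ± 0.19, or 1.80-fold (limma adjusted p = 0.0314). Both calls depend on single arrays or on the scale: the Fbln1 call was lost whichever of the 6 arrays was left out (limma adjusted p 0.0679 to 0.172), and the Col12a1 call without replicate 1 at 640 or replicate 1 or 2 at 300 mOsm/kg (up to 0.0807). On deposited values their adjusted p was 0.542 for Fbln1 and 0.250 for Col12a1, with differences of 0.85 and 0.89. The count of members called was then 2, as it was without each of those 3 arrays.

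After 24 h, 1 member rose at 300 mOsm/kg and 0 fell, where 0.276% of all genes rose and 0.379% fell, 0.655% in either direction. Fbln1 had 7.87, 8.10 and 7.75 at 300 mOsm/kg, against 6.67, 7.32 and 6.79 at 640 mOsm/kg. The groups did not overlap, and the difference was 0.98 ± 0.19, or 1.97-fold (limma adjusted p = 0.0293). This call was lost without replicate 1 or 3 at 640 mOsm/kg or any one array at 300 mOsm/kg (adjusted p up to 0.191), and on deposited values (0.640). The same direction was seen at 24 h for the other genes called at 48 h. Col12a1 had 8.90, 8.84 and 8.73 at 300 mOsm/kg, against 8.02, 8.09 and 7.99 at 640 mOsm/kg, a difference of 0.79 ± 0.17 that missed the threshold (limma adjusted p = 0.0589).

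Fbln2 at 24 h had 8.17, 7.59 and 7.58 at 300 mOsm/kg, against 6.71, 6.68 and 7.32 at 640 mOsm/kg. That difference was 0.88 ± 0.25 (limma adjusted p = 0.214). Postn had 4.97, 4.79 and 4.69 at 300 mOsm/kg, against 4.35, 3.87 and 4.35 at 640 mOsm/kg, a difference of 0.63 ± 0.17 (limma adjusted p = 0.175). In both genes the groups did not overlap. The members' median difference at 24 h was 0.09, with 28 of 40 higher at 300 mOsm/kg, beside a median of -0.04 over all genes. Without replicate 1 at 300 mOsm/kg the members' median was -0.02. That array is 1 of the low pair at 24 h, and the other, replicate 3 at 640 mOsm/kg, stayed in. On the arrays outside the pair, the mean over the members was 7.73 and 7.71 at 300, against 7.63 and 7.53 at 640 mOsm/kg. Groups that did not overlap, with 300 mOsm/kg higher, were seen for 7 members at 48 h (7.83% of all genes) and 5 at 24 h (3.70% of all genes). Groups that did not overlap with 300 mOsm/kg lower were seen for 3 members at 48 h (7.02% of all genes) and 0 at 24 h (4.86% of all genes). The 3 at 48 h were Cthrc1, Spp1 and Pdgfra.

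**Figure D2:**
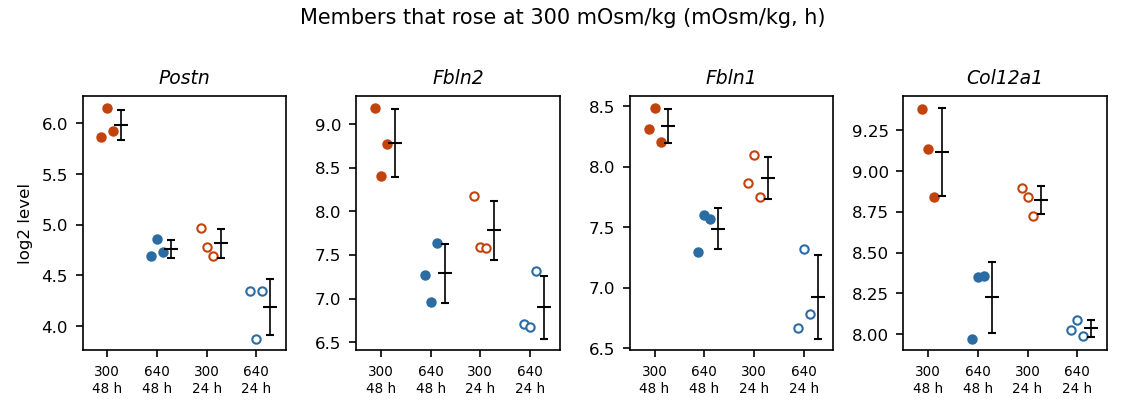
Centred log2 levels of the 4 members that rose at 300 mOsm/kg after 48 h, 1 point per array (filled 48 h, open 24 h), with the mean and SD of 3 arrays as bars and a separate vertical scale per gene. For Postn, Fbln2, Fbln1 and Col12a1 all arrays at 300 mOsm/kg lie above all arrays at 640 mOsm/kg of the same time.

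Whether the osmolality effect differed between 48 h and 24 h was tested as the difference of both effects. No member passed: all 40 had an adjusted p of 1 in limma, and 0 were called in any of the 22 alternatives run. At an unadjusted p under 0.05 there was 1 member, Postn, on centred arrays, beside 131 of all genes (0.903%). Of all genes, 0.0276% fell and 0 rose. At an effect of 1.22 after 48 h and 0.63 after 24 h, Postn differed by 0.60 ± 0.24 between the times, and Fbln2, with 1.50 and 0.88, by 0.62 ± 0.36. The lowest were Cthrc1 at -0.54 ± 0.29 and Mgp at -0.53 ± 0.31. The fit of 4 means to 12 arrays leaves such differences of differences with SEs of 0.23 to 0.51.

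By role, the fibrillar collagens (the chains of types I, III and V that form interstitial fibrils) had 0 of 5 called at either time, although all 5 were higher at 300 mOsm/kg, by 0.18 to 0.46 after 48 h and by 0.07 to 0.44 after 24 h. Their arrays overlapped in every case, and 0 had an unadjusted p under 0.05 in limma. Col1a1, a chain of type I collagen, had 11.06, 10.33 and 10.62 at 300 mOsm/kg after 48 h, against 10.52, 10.21 and 10.32 at 640 mOsm/kg, a difference of 0.32 ± 0.20 (limma adjusted p = 0.935). Col8a1, a short-chain collagen of vessel walls, differed by -0.28 ± 0.22 at 48 h. Of the elastic fibre genes, 2 of 7 rose after 48 h, the fibulins above, while Eln (elastin), Fbn1 (fibrillin, the core of microfibrils), Fbln5, Mfap4 and Mfap5 lay between -0.14 and 0.20.

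The 4 proteoglycans, Vcan (versican), Dcn (decorin), Lum (lumican) and Bgn (biglycan), had 0 called, with differences of -0.18 to 0.19 at 48 h and -0.40 to 0.11 at 24 h. The 0.19 and the -0.40 are those of Lum, the dimmest measured member, with levels of 1.85 to 3.21 over the 12 arrays. Of the 7 adhesive and matricellular genes, 1 rose at 48 h, Postn. Cthrc1 (a secreted protein of remodelling vessels) had 6.89, 7.07 and 6.64 at 300 mOsm/kg after 48 h, against 7.23, 7.91 and 7.26 at 640 mOsm/kg. Its groups did not overlap, and the difference of -0.61 ± 0.20 did not pass (limma adjusted p = 0.232). Spp1 (osteopontin, a secreted phosphoprotein made by tubular cells) differed by -0.38 ± 0.18 at 48 h, and Fn1 (fibronectin), Sparc, Tgfbi and Mgp (matrix Gla protein, an inhibitor of calcification) lay between -0.04 and 0.14, with Mgp at 0.58 ± 0.22 after 24 h.

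The enzymes that mature the matrix had 0 of 4 called. Loxl2, a lysyl oxidase that cross-links collagen, had the largest difference of these, 0.75 ± 0.26 after 48 h (limma adjusted p = 0.258), and its groups did not overlap. Lox and Loxl1 of the same family differed by 0.31 and 0.30, and Pcolce, which speeds the removal of the procollagen tail, by -0.04. The fibroblast surface genes had 0 of 4 called, and all 4 were lower at 300 mOsm/kg after 48 h: Pdgfra (a receptor for platelet-derived growth factor) by -0.45 ± 0.19, Thy1 (a surface glycoprotein of fibroblasts) by -0.42 ± 0.30, Fap (a surface protease) by -0.05 and Pdgfrb (the other receptor, found on pericytes) by -0.03. At 24 h, 3 of these 4 were lower, within -0.21 to 0.06.

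**Figure D3:**
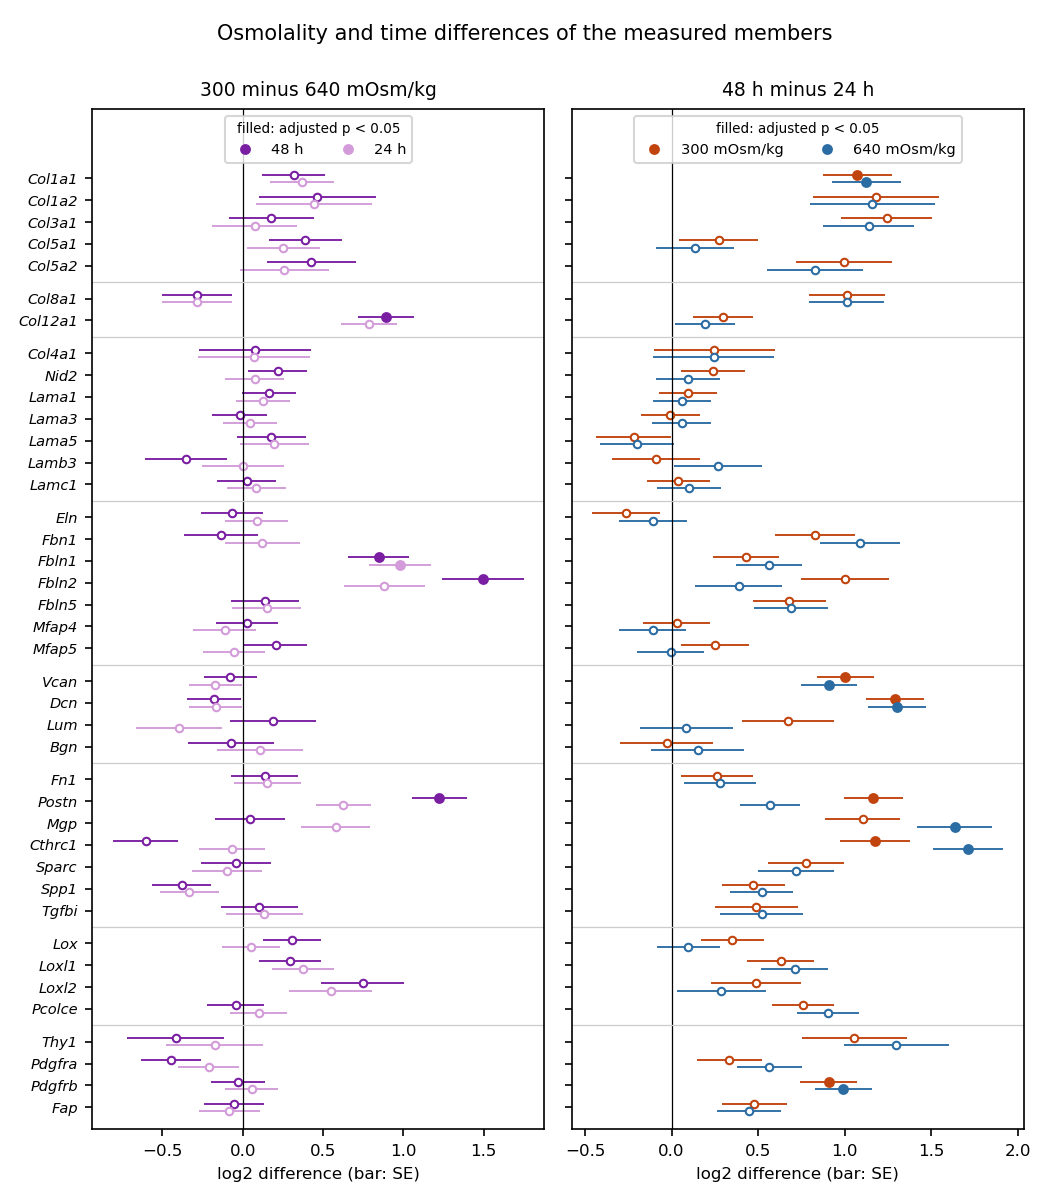
Log2 difference and SE of each measured member, by role, with 300 minus 640 mOsm/kg on the left (dark 48 h, light 24 h) and 48 h minus 24 h on the right (300 mOsm/kg in orange, 640 mOsm/kg in blue). Filled points passed an adjusted p under 0.05. On the left 4 points at 48 h and 1 at 24 h are filled, on the right 6 at each osmolality, and the points for time shift by about the 0.42 difference in array medians on deposited values, where 12 members at 300 and 14 at 640 mOsm/kg change sign.

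The second question was how the members changed with time in culture. Relative to the array median, 6 members rose between 24 h and 48 h at 300 mOsm/kg and 6 at 640 mOsm/kg, and 0 fell at either. Over all genes, 0.165% rose and 0.0896% fell at 300 mOsm/kg (0.255% in either direction), and 0.138% rose and 0 fell at 640 mOsm/kg, where members made up 6 of the 20 rises. Dcn, Vcan, Cthrc1, Col1a1 and Pdgfrb were called at both osmolalities, Postn at 300 and Mgp at 640 mOsm/kg. The members' median change was 0.49 at 300 mOsm/kg, with 35 of 40 higher at 48 h, and 0.52 at 640 mOsm/kg, with 36 of 40 higher. The medians over all genes were 0.05 and 0.00.

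These counts rest on the scale of the arrays. On deposited values without centring, 0 members and 0 genes were called over time in limma. At an unadjusted p under 0.05 there were 14 members (35%) at 300 and 13 (32.5%) at 640 mOsm/kg, beside 23.2% and 28.1% of all genes. These counts hold both directions. On deposited values most genes of the array were lower at 48 h, as were the 3 basement membrane genes among the 14 and the 1 among the 13. The members' median was then 0.06 at 300 mOsm/kg, with 23 of 40 higher at 48 h, and 0.10 at 640 mOsm/kg, with 22 of 40 higher, beside medians of -0.38 and -0.41 over all genes. The 12 called changes stayed positive there, from 0.48 for Pdgfrb at 300 mOsm/kg to 1.30 for Cthrc1 at 640 mOsm/kg. Time and the scale of the arrays moved together only in part: the low pair at 24 h (6.89 and 6.90) lay within the 48 h range of medians. On deposited values, each of the 12 called changes had its low-pair array below all 48 h arrays of its osmolality. Dcn had 6.14 on that array at 300 mOsm/kg, against 7.23 to 7.74 at 48 h, and 6.56 at 640 mOsm/kg, against 7.46 to 7.82. This rests on 1 array at each osmolality, and the parts of time and scale in these changes were not tested.

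Dcn had 7.90, 7.60 and 7.50 at 48 h and 300 mOsm/kg, against 6.34, 6.30 and 6.48 at 24 h. At 640 mOsm/kg it had 7.75, 7.84 and 7.94 at 48 h, against 6.54, 6.32 and 6.75 at 24 h. The groups were far apart at both osmolalities, and the changes were 1.29 ± 0.17 at 300 (limma adjusted p = 0.0034) and 1.31 ± 0.17 at 640 mOsm/kg (0.00386). Of the alternatives run, the Dcn calls were lost only on deposited values, where the changes were 0.86 and 0.89 (limma adjusted p = 0.155 and 0.143).

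Cthrc1 had 6.89, 7.07 and 6.64 at 48 h and 300 mOsm/kg, against 5.81, 5.77 and 5.48 at 24 h. At 640 mOsm/kg it had 7.23, 7.91 and 7.26 at 48 h, against 5.61, 5.71 and 5.94 at 24 h. Its change was 1.18 ± 0.20 at 300 (limma adjusted p = 0.0257) and 1.72 ± 0.20, or 3.28-fold, at 640 mOsm/kg (0.00344), with replicate 2 the highest of the 48 h arrays in both groups. Mgp had 8.53, 8.39 and 8.22 at 48 h and 640 mOsm/kg, against 6.96, 6.38 and 6.89 at 24 h, a change of 1.64 ± 0.22, or 3.11-fold (limma adjusted p = 0.00459). This call was lost without replicate 1 at 640 mOsm/kg and 48 h (0.0532). At 300 mOsm/kg Mgp had 8.51, 8.59 and 8.18 at 48 h, against 7.75, 7.01 and 7.20 at 24 h, a change of 1.11 ± 0.22 just outside the threshold (limma adjusted p = 0.051).

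Col1a1 had the levels at 48 h given above, against 9.75, 9.66 and 9.37 at 24 h and 300 mOsm/kg and 9.39, 9.02 and 9.26 at 24 h and 640 mOsm/kg. No array at 24 h reached the lowest at 48 h, and the changes were 1.07 ± 0.20 at 300 (limma adjusted p = 0.0336) and 1.13 ± 0.20 at 640 mOsm/kg (0.0387). Of the other fibrillar collagens, Col1a2, Col3a1 and Col5a2 had differences of 1.18, 1.24 and 1.00 at 300 and of 1.16, 1.14 and 0.83 at 640 mOsm/kg without passing the test, and Col5a1 of 0.27 and 0.14. All 5 were higher at 48 h, except that Col5a1 was lower on deposited values. Col8a1 had 1.01 at both osmolalities, and Col12a1, called for osmolality at 48 h, had 0.30 and 0.19.

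Vcan had 7.21, 7.58 and 7.27 at 48 h and 300 mOsm/kg, against 6.19, 6.53 and 6.33 at 24 h, and 7.34, 7.60 and 7.35 at 48 h and 640 mOsm/kg, against 6.54, 6.53 and 6.49 at 24 h. The groups of 1 osmolality did not overlap, and the changes over time were 1.01 ± 0.16 (limma adjusted p = 0.0193) and 0.91 ± 0.16 (0.0387). Pdgfrb had 8.18, 7.72 and 7.74 at 48 h and 300 mOsm/kg, against 6.95, 6.96 and 7.01 at 24 h, and 7.87, 7.80 and 8.05 at 48 h and 640 mOsm/kg, against 6.96, 6.75 and 7.03 at 24 h. Its changes were 0.91 ± 0.17 (limma adjusted p = 0.0336) and 0.99 ± 0.17 (0.0362). Postn had the levels given above and changed by 1.17 ± 0.17 at 300 mOsm/kg (limma adjusted p = 0.0105), and its difference at 640 mOsm/kg was 0.57 ± 0.17 (0.429).

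Leaving out 1 array lowered the number of members called over time. At 300 mOsm/kg it was 5 without replicate 1 at 24 h, 2 without replicate 1 at 48 h, 3 without replicate 2 at 48 h, 2 without replicate 3 at 48 h, 3 without replicate 2 at 24 h and 1 without replicate 3 at 24 h. At 640 mOsm/kg it was 2 without replicate 1 at 48 h and 3 without any of the other 5 arrays. The Pdgfrb calls were lost whichever array was left out (limma adjusted p 0.0671 to 0.196 at 300 and 0.0562 to 0.192 at 640 mOsm/kg), as were those of Col1a1 and Vcan at 640 mOsm/kg (0.106 to 0.269 and 0.106 to 0.288). The highest adjusted p without 1 array at 300 mOsm/kg was 0.238 for Col1a1, 0.141 for Vcan, 0.179 for Cthrc1 and 0.0930 for Postn, so those 4 calls also depend on single arrays. Without the pair of low-median arrays at 24 h, 11 members were called at 300 mOsm/kg.

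**Figure D4:**
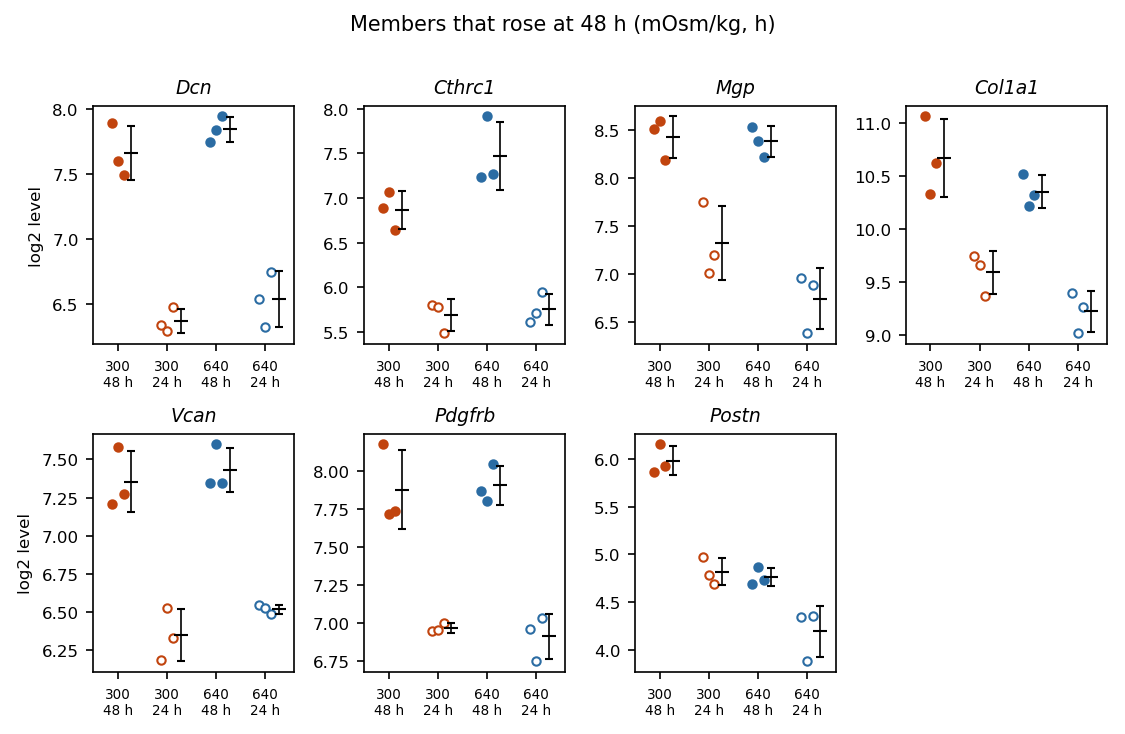
Centred log2 levels of the 7 members that rose between 24 h and 48 h at either osmolality, 1 point per array (filled 48 h, open 24 h, orange 300 and blue 640 mOsm/kg), with the mean and SD of 3 arrays as bars and a separate vertical scale per gene. At each osmolality all 48 h arrays lie above all 24 h arrays for Dcn, Cthrc1, Mgp, Col1a1, Vcan, Pdgfrb and Postn, and these changes keep their direction on deposited values, where none passes the test.

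Groups that did not overlap over time, with 48 h higher, were seen for 22 members at 300 mOsm/kg (7.29% of all genes) and 21 at 640 mOsm/kg (4.95% of all genes), and with 48 h lower for 0 members (4.85% and 4.63% of all genes). Of the members not called, Pcolce had the smallest p among the matrix-maturing enzymes. It had 9.13, 9.21 and 9.07 at 48 h and 640 mOsm/kg, against 8.12, 8.33 and 8.25 at 24 h, a difference of 0.90 ± 0.18 (limma adjusted p = 0.0804). The groups did not overlap. Thy1 had 1.06 ± 0.30 at 300 and 1.30 ± 0.30 at 640 mOsm/kg, Fbn1 had 0.83 ± 0.23 and 1.09 ± 0.23, and neither passed the test at either osmolality.

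The third question set interstitial genes beside basement membrane genes, without a test between the lists. The interstitial list held the fibrillar collagens, Col12a1, the proteoglycans, Fn1, Postn and the elastic fibre genes except Fbln1 and Fbln2. Its Col6a1, Col6a2, Col6a3 and Tnc were not measured. Fbln1, Fbln2, Col8a1, Mgp, Cthrc1, Sparc, Spp1, Tgfbi, the matrix-maturing enzymes and the fibroblast surface genes were in neither list. The 17 measured interstitial genes of 21 had a median change over time of 0.68 at 300 and 0.57 at 640 mOsm/kg. Of them 4 and 3 were called, all as rises, where 0.165% and 0.138% of all genes rose. Among these only Dcn kept its call whichever array was left out. The 7 measured basement membrane genes of 12, Col4a1 (a chain of type IV collagen), Nid2 (nidogen, a linker) and the laminin chains Lama1, Lama3, Lama5, Lamb3 and Lamc1, had medians of 0.04 and 0.10, with 0 called in limma and 0 at an unadjusted p under 0.05. On deposited values the interstitial medians were 0.25 and 0.15, and the basement membrane medians were -0.39 and -0.32 with all 7 genes lower at 48 h, close to the medians of -0.38 and -0.41 over all genes. For osmolality, the interstitial median was 0.18 at 48 h, with 2 called (Postn and Col12a1), and 0.12 at 24 h, with 0 called. Of all genes, 0.524% rose at 48 h and 0.276% at 24 h. The basement membrane median was 0.08 at both times, with 0 called. Without replicate 1 at 300 mOsm/kg of the same time, the basement membrane median was -0.02 at 48 h and -0.06 at 24 h, and the interstitial median at 24 h was -0.01. On the 24 h arrays outside the low pair, interstitial means were 7.29 and 7.26 at 300 against 7.22 and 7.03 at 640 mOsm/kg. Basement membrane means there were 8.94 and 9.00 against 8.95 and 8.89.

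Lamb3, a chain of the laminin that anchors epithelia, had the smallest p of the basement membrane genes. It had 11.14, 10.58 and 10.98 at 300 mOsm/kg after 48 h, against 11.37, 10.87 and 11.53 at 640 mOsm/kg. These groups overlapped, and the difference was -0.35 ± 0.25 (limma adjusted p = 0.999). The other 6 lay between -0.02 and 0.22 at 48 h, and all 7 between 0.00 and 0.20 at 24 h. The SEs of these differences were 0.17 to 0.35.

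Among the arrays of a group, replicate 1 stood high at 300 mOsm/kg. At both 48 h and 24 h, 26 of the 40 members (65%) had their highest level of the group on it, including all 5 fibrillar collagens and 6 of 7 basement membrane genes. Over all genes the share was 39.6% at 48 h and 50.8% at 24 h. At 640 mOsm/kg, replicate 3 held the highest level of 19 members (47.5%) at 48 h and 25 (62.5%) at 24 h, against 35.4% and 47.1% of all genes. The mean level of the 5 fibrillar collagens lay between 8.95 and 9.95 at 300 and between 8.78 and 9.31 at 640 mOsm/kg after 48 h, and this spread between arrays of 1 group entered their test.

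Further genes of matrix production and sensing were read from lists by function. Of 18 measured genes of collagen processing (22 symbols listed), 0 rose and 2 fell at 300 mOsm/kg after 48 h. The symbols include older names of listed genes, such as Leprel1 for P3h2. P3h2, which hydroxylates proline in basement membrane collagens, averaged 8.55 ± 0.41 at 300 against 10.26 ± 0.26 at 640 mOsm/kg (SD, n = 3 each), a difference of -1.71 ± 0.22 (limma adjusted p = 0.000311), and it also fell at 24 h by 1.15 on the log2 scale (0.0237). Loxl4, a lysyl oxidase, fell by 1.26 at 48 h (limma adjusted p = 0.0234). Serpinh1, the collagen chaperone, and Plod2, which hydroxylates lysine, had 0.44 (limma adjusted p = 0.372) and -0.45 (0.449). Among 24 other matrix genes (39 listed), 0 rose and 1 fell at 48 h, Col4a4, a type IV collagen chain, at -1.14 ± 0.25 (limma adjusted p = 0.0249), while its partner Col4a3 had -1.01 ± 0.26 (0.0671), Sparcl1 -0.52 and Efemp2 0.55.

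Of 21 measured genes of the transforming growth factor beta pathway (26 symbols listed), a main driver of matrix genes, 0 rose and 1 fell at 300 mOsm/kg after 48 h. Ctgf and Ccn2 among these symbols name the same gene. Tgfbr3, a co-receptor, averaged 6.62 ± 0.21 at 300 against 7.98 ± 0.14 at 640 mOsm/kg, a difference of -1.36 ± 0.16 (limma adjusted p = 0.000199), and fell by 0.95 at 24 h (0.0135). The receptor Tgfbr1 had -0.75 (limma adjusted p = 0.092), the latency protein Ltbp3 0.50 (0.216) and the ligand Tgfb3 0.64 (0.22). Of 19 matrix receptors (23 listed), 1 rose and 1 fell at 48 h. Itgb3, the integrin chain that pairs with the alpha v chain to bind vitronectin, fibronectin and periostin, averaged 9.03 ± 0.29 at 300 against 7.85 ± 0.27 at 640 mOsm/kg, a difference of 1.19 ± 0.20 (limma adjusted p = 0.00445), and rose by 1.14 at 24 h (0.0167). Bcam, a laminin receptor of epithelia, fell by 0.89 at 48 h (limma adjusted p = 0.013), and Itga6 and Itgb4 had 0.59 and 0.25. Over time these 4 lists had 0 called at either osmolality, and their medians lay between 0.06 and 0.27 at 300 and between 0.08 and 0.23 at 640 mOsm/kg.

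Markers of the cells that such a culture could hold were read beside these results. Over time, the list means of several, collecting duct markers at 640 mOsm/kg among them, were higher at 48 h, as were those of the interstitial genes. The 7 pericyte markers averaged 7.10 to 7.22 at 48 h and 300 mOsm/kg, against 6.51 to 6.74 at 24 h, and 7.09 to 7.23 at 48 h and 640 mOsm/kg, against 6.46 to 6.56 at 24 h. The 8 markers of myofibroblasts and smooth muscle averaged 8.75 to 8.95 at 48 h and 300 mOsm/kg, against 7.99 to 8.23 at 24 h, and 8.21 to 8.55 at 48 h and 640 mOsm/kg, against 7.87 to 8.12 at 24 h. The 12 markers of macrophages and leukocytes averaged 6.71 to 7.20 at 48 h and 300 mOsm/kg, against 6.23 to 6.46 at 24 h, and 6.82 to 7.25 at 48 h and 640 mOsm/kg, against 6.23 to 6.58 at 24 h. Their median changes at 300 and 640 mOsm/kg were 0.63 and 0.65 for pericytes, 0.80 and 0.48 for myofibroblasts and 0.61 and 0.67 for macrophages, beside 0.28 and 0.14 for the 15 fibroblast markers outside the 49 genes. The 16 collecting duct markers averaged 9.68 to 9.86 at 48 h and 300 mOsm/kg, against 9.55 to 9.72 at 24 h, and 10.47 to 10.61 at 48 h and 640 mOsm/kg, against 10.12 to 10.25 at 24 h. Their median changes were 0.18 at 300 and 0.28 at 640 mOsm/kg, with 0 called in limma and 1 and 5 at an unadjusted p under 0.05, beside 7.62% and 6.58% of all genes. On deposited values these medians were 0.20 and 0.24 for pericytes, 0.37 and 0.06 for myofibroblasts, 0.18 and 0.25 for macrophages and, with the opposite sign, -0.15 and -0.28 for the fibroblast markers and -0.25 and -0.14 for the collecting duct markers. The calls among them over time were Cnn1 and Actg2 of smooth muscle and C1qa of macrophages at 300 mOsm/kg, and Kcnj8 of pericytes, chosen for naming after its value was seen, at 640 mOsm/kg. All 4 rose, by 1.53, 1.35, 1.04 and 0.99 on centred arrays. The fibroblast list shares Col14a1, Ogn, Fmod and Ddr2 with the lists of other matrix genes and matrix receptors. The part of these cell types in the changes of the members was not tested.

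For osmolality at 48 h, the 15 fibroblast markers outside the 49 genes had a median of -0.08, with 0 risen and 1 fallen, S100a4 by 2.38, and the 7 pericyte markers a median of 0.07 with 0 called. Among the 8 myofibroblast markers Cnn1 rose by 1.12 (limma adjusted p = 0.0288), and their median was 0.39. Emcn of 11 endothelial markers fell by 1.32. The median of these 11 was -0.18, with 10 lower at 300 mOsm/kg. At 24 h their median was -0.25, with 9 lower and 0 called. The list mean was lower on every array at 300 than on any array at 640 mOsm/kg of the same time. At 48 h, 6 of the 11 had an unadjusted p under 0.05 in limma, beside 8.18% of all genes. On deposited values it was 3 of the 11, beside 4.74%, with 0 called. Csf1r of 12 macrophage markers fell by 0.69 at 48 h. Of 16 collecting duct markers, 4 fell and 0 rose: Aqp2, the vasopressin-regulated water channel, averaged 7.31 ± 0.51 at 300 against 11.72 ± 0.13 at 640 mOsm/kg, and Slc14a2 (a urea transporter), Aqp3 (another water channel) and Avpr2 (the vasopressin receptor) fell, at -2.54, -2.19 and -1.50. Of 6 markers of thin and thick limbs, Aqp1 and Slc12a1 fell, at -2.48 and -1.17. The part of these cell types in the rises of Postn, Fbln2, Col12a1 and Fbln1 was not tested.

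**Figure D5:**
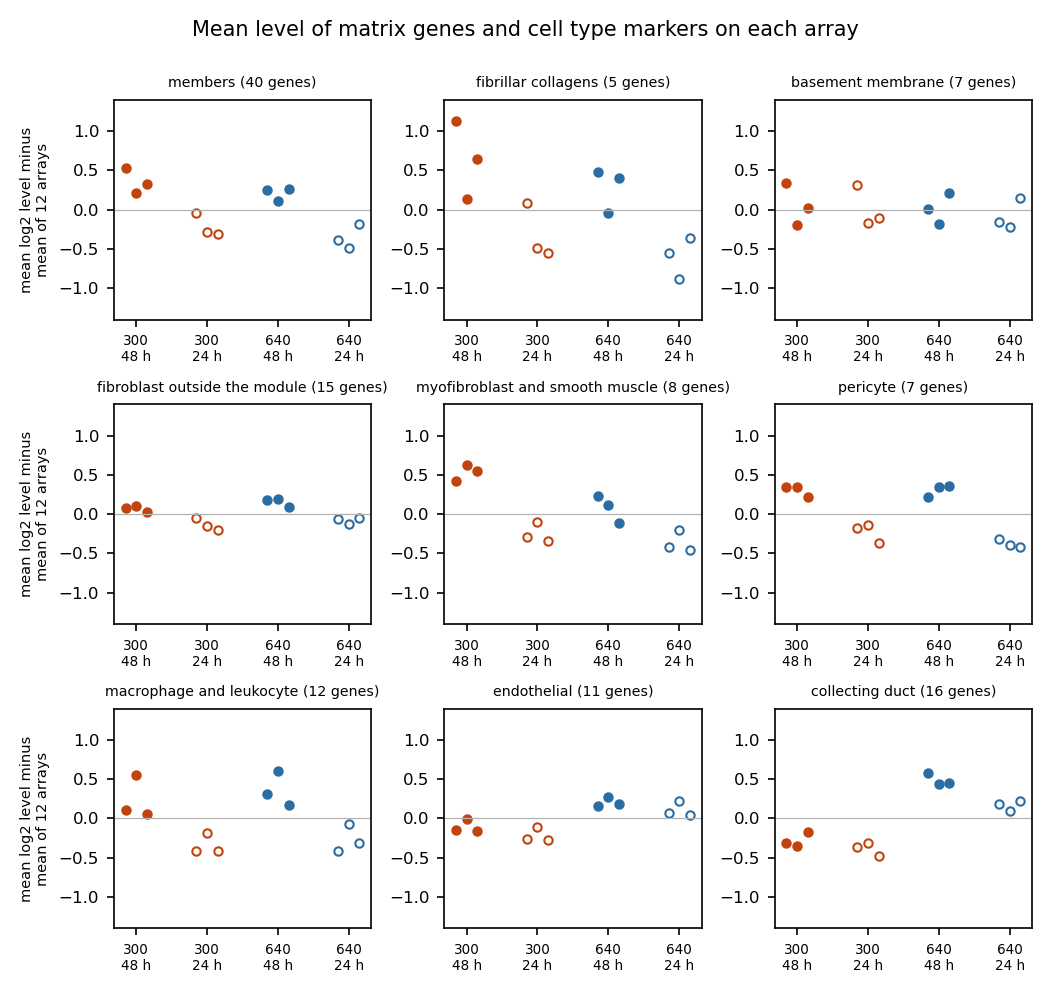
Mean centred log2 level of each list on each array, minus the list's mean over the 12 arrays, 1 point per array (orange 300 and blue 640 mOsm/kg, filled 48 h and open 24 h). The 48 h arrays lie above the 24 h arrays of their osmolality for the members, the interstitial fibrillar collagens, and the fibroblast, pericyte, myofibroblast and macrophage markers, and for the collecting duct markers at 640 mOsm/kg, while the basement membrane genes overlap, and the position of 48 h relative to 24 h is that on centred arrays.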

How the data were processed

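Messenger RNA of 12 samples was measured on 1 array each, in 4 groups of 3 named by their titles. For cells at 300 mOsm/kg for 24 h and at 640 mOsm/kg for 48 h, a code in the description disagrees with title and treatment label about osmolality, and the title was used. The authors deposited log2 values per probe set, made with RMA in Affymetrix Power Tools per the submitters' processing notes, with no version stated. RMA should bring arrays processed together to a common scale, and the array medians differed, so a change over time depends on the scale chosen. No detection calls or hybridisation dates were used, so detection limits and such batches are unknown.

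Of 27596 probe sets, 15310 had 1 gene symbol in the platform annotation, 323 had several and 11963 were not listed. Entrez IDs of 15279 matched RefSeq and 31 did not. Where a gene had several probe sets, the brightest on average was kept (14506 genes), and 0 measured members had several. Each array was centred on its median. limma 3.58.1 in R 4.3.3 (lmFit, eBayes) was fitted with 1 mean per group over 12 arrays (8 residual degrees of freedom), with Benjamini-Hochberg adjustment over all genes and a threshold of 0.05, and was tested on simulated data.

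Members, lists and tests were chosen with earlier results of these data known. Array values are given for each member called in any comparison and for the member with the smallest p of a role group with none called in the osmolality or time comparisons, and of each further list up to 4 genes with the smallest adjusted p at 48 h were named. Alternatives were deposited values, centring on all probe sets, quantile and cyclic loess normalization, leaving out the dimmest 30% of genes, averaging probe sets within genes, trend and robust eBayes, array weights, a fit of only the groups compared, a block for the replicate number, each array left out and, chosen after seeing the data, the pair of 24 h arrays with low medians left out.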

Additional observations from a re-analysis of the deposited data

How the results depend on the processing

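No called change turned direction in the alternatives run. On deposited values 12 members at 300 and 14 at 640 mOsm/kg had the opposite sign over time, as had the medians of the basement membrane genes, the fibroblast markers and the collecting duct markers, and no gene was called over time there. Medians for osmolality also turned sign without replicate 1 at 300 mOsm/kg, at 24 h those of the members, the interstitial and the basement membrane genes, and at 48 h that of the basement membrane genes. At 24 h that array is 1 of the pair with low medians, and the other, replicate 3 at 640 mOsm/kg, stayed in that fit. In every alternative the members' median differences for osmolality moved by less than the spread between arrays (SD of the array medians 0.16). That spread exceeds the medians themselves, 0.09 at both times, so a median could turn sign and still stay within it. On deposited values the members called were 0 for osmolality at 24 h, 2 at 48 h and 0 over time at either osmolality, the genes called 13, 104, 0 and 0, and 0 for the difference of the osmolality effects. The members' median over time was then 0.058 at 300 and 0.10 at 640 mOsm/kg. At 24 h, 1 member was called for osmolality as reported, against 0 with centring on all probe sets, 3 with quantile normalization, 2 with cyclic loess, 2 without the dimmest genes and 0 with only the groups compared, where 10 genes were called. Array weights called 6 members at 24 h, 21 over time at 300 and 19 over time at 640 mOsm/kg, with 1595 genes at 24 h, 499 at 48 h, 1907 and 986 over time and 10 for the difference of the effects. For that difference, 2 genes were called with centring on all probe sets, quantile normalization or cyclic loess. Without the pair of low-median arrays at 24 h, 0 members and 17 genes were called for osmolality at 24 h, 11 members and 219 genes over time at 300, 34 genes over time at 640 mOsm/kg and 0 genes for the difference of the effects. The cause of these shifts was not tested.

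Leaving out 1 array at a time gave 0 to 1 members and 26 to 75 genes for osmolality at 24 h, 2 to 3 members and 158 to 194 genes at 48 h, 1 to 5 members and 7 to 38 genes over time at 300, 2 to 3 members and 6 to 15 genes over time at 640 mOsm/kg, and 0 to 4 genes for the difference of the effects. The labels do not say whether replicate numbers mark pairs. Same-numbered arrays of 1 time correlated between -0.23 and 0.84, and 4 of 12 arrays, all of replicate 2, matched best with their own number. The other 8 matched best with an array of the other osmolality at the same time, replicate 1 with replicate 3 (r 0.58 to 0.83), a hint from the data and not from the design, and no fit used it. The SEs for osmolality therefore hold spread that such arrays share. The replicate block joins arrays by number, so it does not take up the match of replicate 1 with replicate 3. With the replicate block, 2 members and 159 genes were called for osmolality at 24 h, 13 members and 92 genes over time at 300 and 10 members and 35 genes over time at 640 mOsm/kg. Signal over background is unknown without detection calls, so a dim gene such as Postn, Lum or Fap has no stated limit.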
